A study of Homo sapiens with 6 samples.

Results

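A group of 10 genes that act as outputs and feedback inhibitors of ERK signalling were followed in 22RV1 cells, an established human prostate cancer line, after overexpression of miR-338-5p or miR-421. The genes were DUSP4, DUSP5, DUSP6, SPRY1, SPRY2, SPRY4, ETV4, ETV5, EGR1 and FOSL1, and every array probe carrying 1 of these 10 gene names was taken. They made 12 probes of the 58201 gene probes on the array, which carried 43317 gene names. The cells were stable lines made with a lentiviral vector, pLemiR-338-5p, pLemiR-421 or, as control, pLemiR-RFP, and all were kept in serum-containing medium with puromycin. Each of 6 two-colour arrays held control RNA in the Cy3 dye and RNA of a miRNA line in the Cy5 dye, with no dye swap. There were 3 arrays for miR-338-5p (replicates 1, 2 and 3) and 3 for miR-421 (a sample labelled as a pool, and replicates 1 and 2). What was pooled, and whether the replicates were separate cultures, is not given in the labels, so the p-values below measure the spread between these samples, which may be technical. Both lines were compared with the pLemiR-RFP control, and whether 1 control culture served every array is not given.

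Growth factor receptors act through RAS, RAF and MEK kinases to activate ERK, a MAP kinase (MAPK), which then turns on immediate-early genes such as EGR1 and, with a delay, the ETS factors ETV4 and ETV5 and the inhibitors of the pathway itself. The dual-specificity phosphatases (DUSP) remove phosphate from ERK and related kinases, and the Sprouty proteins (SPRY) restrain signalling between the receptor and RAF. Because their messenger RNAs follow ERK activity, these genes are widely read together as a transcript-level measure of the pathway, in prostate cancer cells as in others.

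The 2 agents differed in sequence. The mature miRNAs are shown as RefSeq gives them (GRCh38.p14), with the seed, the stretch from base 2 to base 8 that pairs with target messenger RNAs, in capitals, since the lines differ by these molecules.
hsa-miR-338-5p: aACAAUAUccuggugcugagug
hsa-miR-421: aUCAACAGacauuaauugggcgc
The first lies at chr17:81125923-81125944 and the second at chrX:74218392-74218414, both on the minus strand. They share no seed. The 7-base complements of the seeds, ATATTGT for miR-338-5p and CTGTTGA for miR-421, occurred in 0 of the 12 member probes, each 60 bases long. They occurred in 0.478% and 0.558% of all 58201 gene probes. A probe covers only a small stretch of its transcript, so this says nothing about the rest of each messenger RNA.

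Promoter windows were found in RefSeq for 5 of the 10 genes (DUSP6, SPRY1, SPRY2, SPRY4 and EGR1), in 8 windows of 300 bases. The 250 bases before the start are shown for 2 genes that passed the test below, 1 in each line. EGR1 (chr5:138465229-138465478, plus strand, GRCh38.p14) has its CArG boxes, the element bound by serum response factor, in capitals.
EGR1 promoter: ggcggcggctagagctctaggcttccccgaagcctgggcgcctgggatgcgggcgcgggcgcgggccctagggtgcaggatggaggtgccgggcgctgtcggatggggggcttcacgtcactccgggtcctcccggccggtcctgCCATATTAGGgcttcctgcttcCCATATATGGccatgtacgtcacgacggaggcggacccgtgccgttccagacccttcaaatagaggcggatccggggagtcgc
Its 2 CArG boxes lay 96 and 74 bases before the start, and a CArG box was present in 1.29% of all 35116 windows searched on both strands. SPRY1 (second start, chr4:123398136-123398385, plus strand) has its ETS core, CCGGAA, in capitals.
SPRY1 promoter: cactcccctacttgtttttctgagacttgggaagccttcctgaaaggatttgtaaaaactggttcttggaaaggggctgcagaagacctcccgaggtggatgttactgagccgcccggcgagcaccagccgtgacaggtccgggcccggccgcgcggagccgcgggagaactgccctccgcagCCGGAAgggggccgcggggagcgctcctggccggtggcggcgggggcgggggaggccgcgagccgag
That match lay 62 bases before the start. The window of the first SPRY1 start held 0 ETS cores. Which start gives the RNA read by the SPRY1 probe that passed was not tested, since probe positions are on another genome build. The ETS core occurred in 17.2% of all windows, and among the members also in 1 window of SPRY2. The window of SPRY4, which also passed under miR-421, held 0 ETS cores. The same SPRY1 and SPRY2 windows each held the EGR motif GCGGGGGCG, which occurred in 5.07% of all windows. None of the 8 windows held the AP-1 motif TGANTCA (7.71% of all windows) or the CRE motif TGACGTCA (1.85%). These matches describe the sequence and are no evidence of binding.

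The arrays were of similar brightness, though the control channel differed by line. In Cy3, 47.3% to 47.9% of gene spots were well above background on the miR-338-5p arrays and 44.3% to 44.4% on the miR-421 arrays. The part of this in the differences between the lines was not tested. In Cy5 the shares lay between 41.9% and 48.3%, with the lowest on miR-421 replicate 1, and 0 gene spots were saturated. All 10 of the prostate epithelial markers examined were detected, and 2 of 5 fibroblast markers (COL1A2 and COL3A1) were not. SPINK1, the trypsin inhibitor that the labels use to define these cells, had log2 ratios of -3.04, -2.10 and -6.78 on the miR-338-5p arrays and -7.01, -6.68 and -6.15 on the miR-421 arrays. All values below are log2 ratios of the miRNA line over control (Cy5 over Cy3), so that a value below 0 is a lower level in the miRNA line. A gene with several tested probes stands by its probe of highest mean log2 intensity.

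Under miR-338-5p, EGR1 fell and no other member passed the test. Of the 10 genes, 8 were bright enough to test, and 1 of these 8 (12.5%) passed limma's threshold of an adjusted p under 0.05, beside 9.23% of all 21694 genes tested in either direction and 5.25% in the downward direction. An unadjusted limma p under 0.05 was reached by 3 of the 8, beside 7478 of the 27497 probes tested. The median of the 8 mean log2 ratios was 0.00, equal to the median of all genes tested at 0.00. Signs were the same on all 3 miR-338-5p arrays for 3 of 8 genes (37.5%: DUSP4, SPRY2 and EGR1), beside 50.5% of all genes. The share called is close to that of all genes.

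Under miR-421, DUSP4, SPRY1 and SPRY4, all of them inhibitors of the pathway, rose, and no member passed the test downward. EGR1 and DUSP6 were below 0 on all 3 miR-421 arrays without passing, each with a mean of -0.54. These 3 of 8 genes (37.5%) passed limma's threshold, beside 22.7% of all genes in either direction and 10.0% in the upward direction. The median of the 8 mean log2 ratios was -0.05, beside 0.01 for all genes. Signs agreed across the 3 miR-421 arrays for 6 of 8 genes (75.0%), beside 60.4% of all genes. With 8 genes, these counts describe the members and single none of them out from the rest of the array.

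No member passed limma's test of miR-338-5p minus miR-421. That test called 0 of 8 members and 0.0461% of all genes (10 of 21690). An unadjusted limma p under 0.05 was reached by 2 members, SPRY1 and SPRY4, beside 3753 of the 27497 probes tested. The arrays of both lines did not overlap for 2 of 8 members (25.0%: SPRY4 and EGR1), beside 20.0% of all genes. A gene that passed in 1 line and not in the other is therefore not shown to differ between the lines. Signs were the same on all 6 arrays for 2 of 8 members (25.0%: DUSP4 and EGR1), beside 30.4% of all genes.

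**Figure D1:**
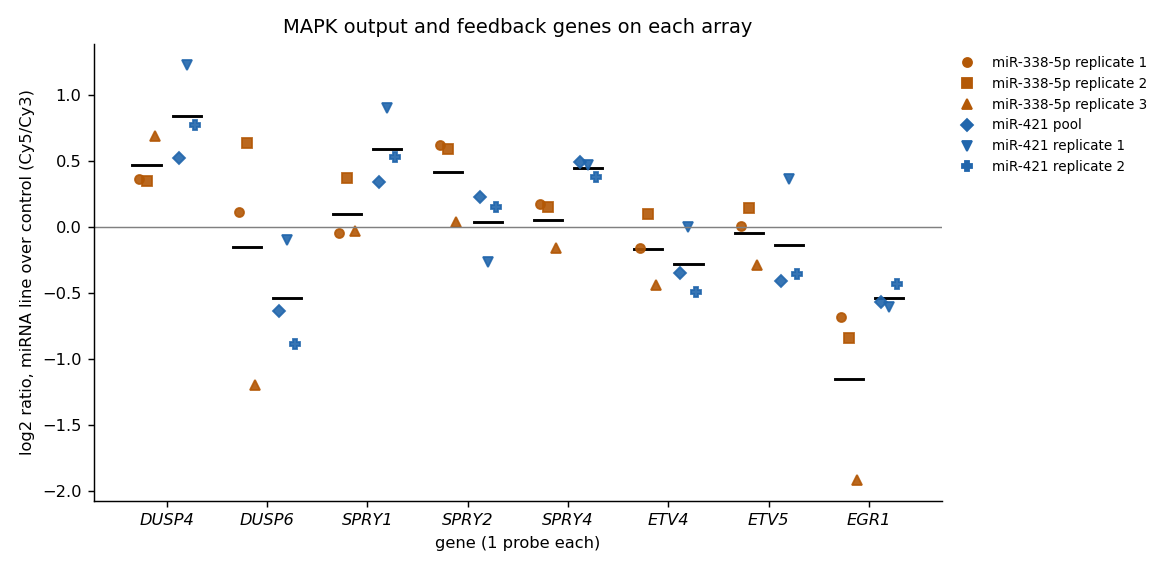
Log2 ratio of the miRNA line over control (vertical axis) for the 8 tested genes, with 1 point per array and a bar at the mean of each line's 3 arrays. DUSP4 lies above 0 and EGR1 below 0 on all 6 arrays, while DUSP6 ranges from -1.20 to 0.64 within the miR-338-5p line.

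DUSP4 (NM_001394, chromosome 8), a nuclear phosphatase of ERK, was above control on all 6 arrays. Its log2 ratios were 0.36, 0.35 and 0.69 on miR-338-5p replicates 1, 2 and 3. They were 0.52 on the miR-421 pool and 1.23 and 0.77 on miR-421 replicates 1 and 2. Replicate 1 of miR-421 was the highest, and the values of both lines overlapped. The mean rise was 0.84 ± 0.36 (SD, n = 3) under miR-421, 1.79-fold (limma, adjusted p = 0.015, 95% interval 0.49 to 1.19). Under miR-338-5p the mean was 0.47 ± 0.19 (SD, n = 3) and did not pass (limma, adjusted p = 0.0988, 95% interval 0.12 to 0.82). The difference of -0.37 between the lines had an interval of -0.86 to 0.12 (limma, adjusted p = 0.477). Without miR-421 replicate 2 the miR-421 mean was 0.87 and no longer passed (limma, adjusted p = 0.0763), and without miR-421 replicate 1 the miR-338-5p mean of 0.47 passed (limma, adjusted p = 0.0374).

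DUSP6 (NM_001946, probe at chr12:89742144-89742203, hg19, minus strand), the cytoplasmic phosphatase selective for ERK, did not share the direction of DUSP4. Its log2 ratios were 0.11, 0.64 and -1.20 on miR-338-5p replicates 1, 2 and 3. They were -0.64 on the miR-421 pool and -0.10 and -0.89 on miR-421 replicates 1 and 2. The miR-338-5p arrays fell on both sides of 0, with replicate 3 the lowest of all 6, whereas the miR-421 arrays were all below 0. The means were -0.15 ± 0.95 and -0.54 ± 0.40 (SD, n = 3 each), and neither passed (limma, adjusted p = 0.829 and 0.304). The intervals of -0.99 to 0.69 and -1.39 to 0.30 leave room for a change of more than 1 log2 unit downward under miR-421. The normalized Cy3 signal of this probe ranged over 0.18 on the log2 scale across arrays and the Cy5 signal over 1.86. Over all tested probes the median ranges were 0.18 in Cy3 and 0.50 in Cy5, so the channel of the miRNA lines spread more in general.

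On no array did DUSP5 (chr10:112270900-112270959, hg19), a nuclear phosphatase of ERK, rise well above background, in Cy3 or in Cy5. Its Cy3 brightness was 22.3 to 26.4 against a local background of 20.0 to 23.0. No ratio is therefore given for it, and its level in either line is bounded only by the background.

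SPRY1 was read by 2 probes, which disagreed. The brighter probe (NM_001258038, chr4:124318918-124318977, hg19, plus strand) gave log2 ratios of -0.05, 0.37 and -0.03 on miR-338-5p replicates 1, 2 and 3. It gave 0.34 on the miR-421 pool and 0.90 and 0.53 on miR-421 replicates 1 and 2. All 3 miR-421 arrays were above 0, and the lowest of them was just under the highest miR-338-5p array. The mean rise under miR-421 was 0.59 ± 0.28 (SD, n = 3; limma, adjusted p = 0.0294, 95% interval 0.27 to 0.91), and the miR-338-5p mean was 0.10 ± 0.24 (SD, n = 3; limma, adjusted p = 0.695). The difference between the lines was -0.49 (95% interval -0.94 to -0.04, limma, adjusted p = 0.333).

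The second SPRY1 probe (NM_199327, chr4:124324494-124324553) read -0.07, 0.17 and -0.28 on miR-338-5p replicates 1, 2 and 3. Under miR-421 it read -0.16 on the pool and -0.34 and -0.16 on replicates 1 and 2. All 3 miR-421 arrays thus lay below 0 here and above 0 at the brighter probe. Its miR-421 mean of -0.22 did not pass (limma, adjusted p = 0.143), and the mean of both probes was 0.18 (limma, adjusted p = 0.199). The control signal of the brighter probe was itself unsteady, from 9.18 to 10.83 in normalized log2 Cy3, a range of 1.64 against a median range of 0.18 over all tested probes. Its mean control signal was 9.44 on the miR-338-5p arrays and 10.35 on the miR-421 arrays, and the part of this in the ratio was not tested. The miR-421 call was also lost without miR-421 replicate 1 (0.43, limma, adjusted p = 0.0892) and without replicate 2 (0.62, limma, adjusted p = 0.111).

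SPRY2 (NM_005842, chr13:80910622-80910681, hg19, minus strand), which restrains receptor signalling upstream of RAF, gave 0.62, 0.59 and 0.04 on miR-338-5p replicates 1, 2 and 3. It gave 0.23 on the miR-421 pool and -0.27 and 0.15 on miR-421 replicates 1 and 2. The miR-338-5p arrays were all above 0, with replicates 1 and 2 well above replicate 3, and the lines overlapped. Neither mean passed, with 0.42 ± 0.33 in the miR-338-5p line and 0.04 ± 0.27 in the miR-421 line (SD, n = 3 each; limma, adjusted p = 0.138 and 0.89).

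SPRY4 was read by a probe (NM_030964, chr5:141690571-141690630, hg19, minus strand) that gave 0.17, 0.15 and -0.16 on miR-338-5p replicates 1, 2 and 3. On the miR-421 pool it gave 0.49, and on miR-421 replicates 1 and 2 it gave 0.47 and 0.38. The 3 miR-421 values were close together and all above the miR-338-5p values. The mean rise was 0.45 ± 0.06 (SD, n = 3) under miR-421, 1.36-fold (limma, adjusted p = 0.016), beside 0.05 ± 0.18 (SD, n = 3) under miR-338-5p (limma, adjusted p = 0.723). The difference was -0.39 (95% interval -0.66 to -0.12, limma, adjusted p = 0.229). The probe was dim, with Cy5 brightness of 40.4 to 58.5 on the miR-421 arrays against a background of 16.0 to 17.0, and its mean under miR-421 was 1.70 after plain background subtraction. A second SPRY4 probe (chr5:141694487-141694546) gave a miR-421 mean of 0.05 (limma, adjusted p = 0.583). Without the pool, replicate 1 or replicate 2 of miR-421 the rise of the first probe was 0.42, 0.43 or 0.48 and did not pass (limma, adjusted p = 0.0615, 0.0564 and 0.0731).

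**Figure D2:**
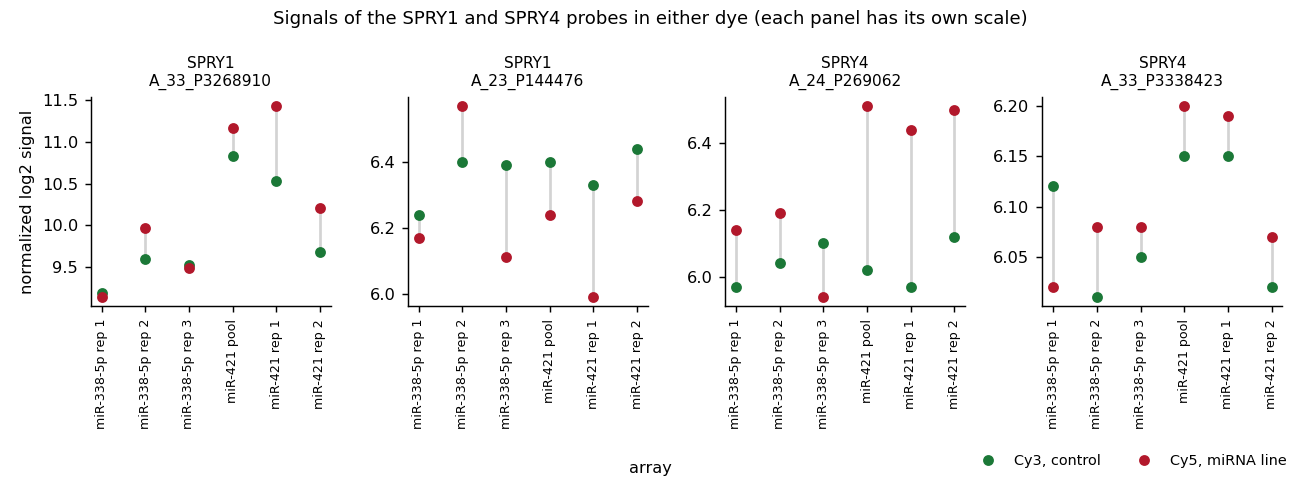
Normalized log2 signal (vertical axis, a separate scale in each panel) of both SPRY1 and both SPRY4 probes on each array, green for control RNA in Cy3 and red for the miRNA line in Cy5. The control signal of the brighter SPRY1 probe spans 9.18 to 10.83, while that of the SPRY4 probe used spans 5.97 to 6.12.

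ETV4 (NM_001079675, chr17:41605966-41606025, hg19, minus strand), an ETS factor of the PEA3 group, gave -0.16, 0.10 and -0.44 on miR-338-5p replicates 1, 2 and 3. It gave -0.35 on the miR-421 pool and 0.00 and -0.49 on miR-421 replicates 1 and 2. The low arrays were miR-338-5p replicate 3, the miR-421 pool and miR-421 replicate 2, so each line held high and low arrays. The means of -0.17 ± 0.27 and -0.28 ± 0.25 (SD, n = 3 each) did not pass (limma, adjusted p = 0.486 and 0.177).

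ETV5 (NM_004454, chr3:185764547-185764606, hg19, minus strand), of the same ETS group, gave 0.01, 0.14 and -0.29 on miR-338-5p replicates 1, 2 and 3. It gave -0.41 on the miR-421 pool and 0.36 and -0.36 on miR-421 replicates 1 and 2. The same 3 arrays were low for ETV5 as for ETV4. The means of -0.05 ± 0.22 and -0.14 ± 0.43 (SD, n = 3 each) did not pass (limma, adjusted p = 0.896 and 0.594).

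Both ETS probes were dim, and their sizes depended on how background was handled. In Cy5 each was well above background on 2 of 3 arrays of either line. The miR-338-5p replicate 3 array failed for both genes, and on the miR-421 side ETV4 failed on replicate 2 and ETV5 on the pool. With the image software's ratio the ETV4 means were -0.82 and -1.32. In the authors' deposited table the ETV4 values were -0.69, 0.43 and -2.20 for miR-338-5p replicates 1, 2 and 3, and -1.68, 0.22 and -2.49 for the miR-421 pool and replicates 1 and 2. In the authors' deposited table ETV5 was 0.00, 0.40 and -2.12 in the first line and -2.09, 1.41 and -1.75 in the second, in the same order. The same 3 arrays were thus lowest for both genes on a wider scale, and neither gene passed in either line under any alternative run.

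**Figure D3:**
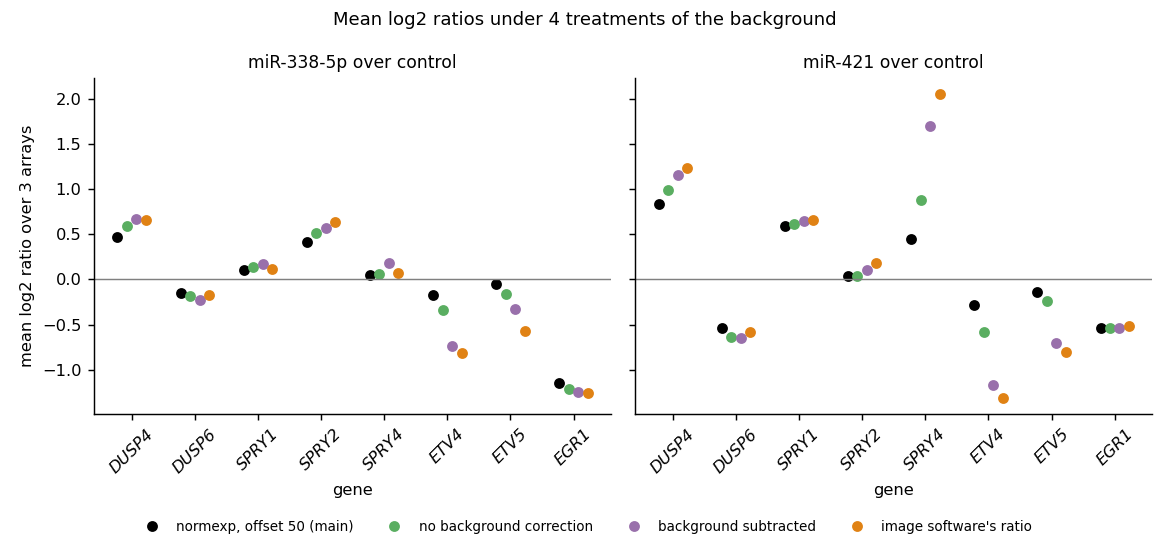
Mean log2 ratio over 3 arrays (vertical axis) of the 8 tested genes under 4 treatments of the background, with miR-338-5p over control on the left and miR-421 over control on the right. SPRY4 under miR-421 moves from 0.45 to 2.06 and ETV4 under miR-421 from -0.28 to -1.32, while the brighter EGR1 and DUSP6 probes hardly move.

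EGR1 (NM_001964, chr5:137804891-137804950, hg19, plus strand), an immediate-early zinc finger factor, was below control on all 6 arrays. Its log2 ratios were -0.68, -0.84 and -1.92 on miR-338-5p replicates 1, 2 and 3. They were -0.57 on the miR-421 pool and -0.61 and -0.43 on miR-421 replicates 1 and 2. Replicate 3 of miR-338-5p was far below the other 5 arrays, and every miR-338-5p array was lower than every miR-421 array. The mean under miR-338-5p was -1.15 ± 0.67 (SD, n = 3), which left 45.1% of the control level (limma, adjusted p = 0.0378, 95% interval -1.71 to -0.59). Under miR-421 it was -0.54 ± 0.09 (SD, n = 3), or 68.9% of control, and did not pass (limma, adjusted p = 0.148, 95% interval -1.10 to 0.02). The difference of -0.61 had an interval of -1.40 to 0.18 (limma, adjusted p = 0.468).

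The EGR1 signal was bright, with normalized Cy3 signals between 9.39 and 9.56, and its direction did not depend on any alternative run. The miR-338-5p mean lay between -1.38 and -0.76 over 17 alternatives and passed in 9 of them. The call was lost when miR-338-5p replicate 1, miR-338-5p replicate 2, the pool of miR-421 or miR-421 replicate 2 was left out (limma, adjusted p = 0.065, 0.0888, 0.0742 and 0.079). Without miR-338-5p replicate 3 its mean was -0.76 and the miR-421 mean of -0.54 passed (limma, adjusted p = 0.013). The miR-421 mean also passed when only the 3 miR-421 arrays were fitted (limma, adjusted p = 0.0234), and so in 2 of 17 alternatives.

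FOSL1 (chr11:65660098-65660157, hg19), an AP-1 subunit widely used as a late marker of sustained ERK activity, was likewise not well above background in Cy3 or Cy5 on any of the 6 arrays. No ratio is given for it. The 2 untested members, DUSP5 and FOSL1, are thus neither called nor shown to be unchanged.

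**Figure D4:**
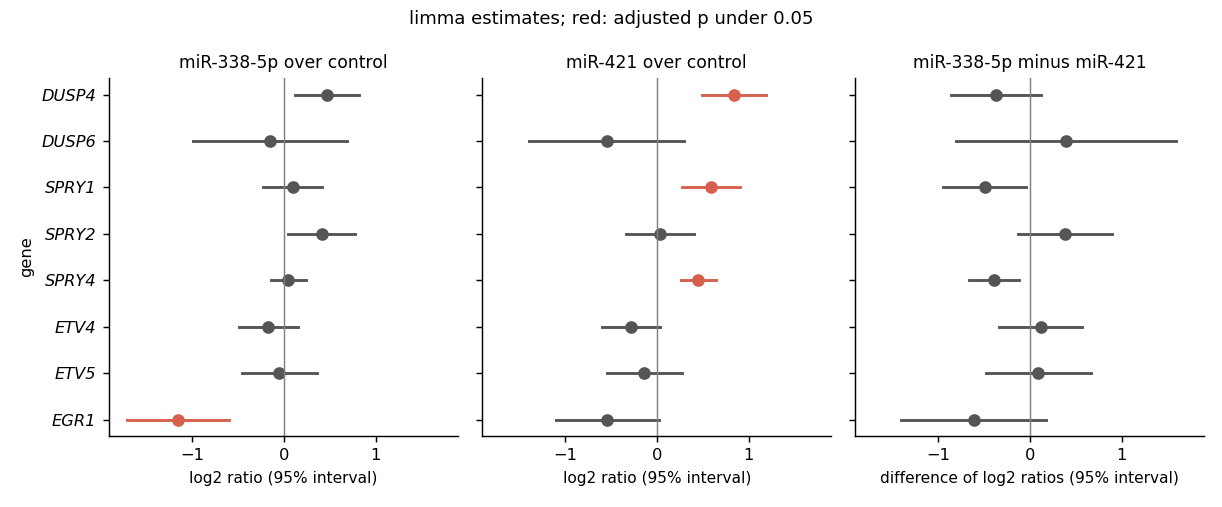
limma estimates (points) with 95% intervals (lines) for the 8 tested genes: each line over control in the left and middle panels, and the difference of the lines on the right, on a log2 axis. Red marks an adjusted p under 0.05: EGR1 at -1.15 under miR-338-5p, and DUSP4 at 0.84, SPRY1 at 0.59 and SPRY4 at 0.45 under miR-421.

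Across the 6 arrays the members did not move as 1 block. The median of the 8 genes was 0.06, 0.25 and -0.22 on miR-338-5p replicates 1, 2 and 3, and -0.06, 0.18 and -0.10 on the miR-421 pool and replicates 1 and 2. Replicate 2 of miR-338-5p had 7 of 8 genes above 0 and replicate 3 had 2 of 8, so arrays of 1 line differed more than the lines did. DUSP6, ETV4 and ETV5 had miR-338-5p replicate 3, the miR-421 pool and miR-421 replicate 2 as their 3 lowest arrays.

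Over 28 gene pairs and 6 arrays, 4 pairs had an unadjusted exact permutation p under 0.05 and 0 passed after adjustment. DUSP6 and ETV4 had r = 0.930 (exact permutation p = 0.0125, adjusted 0.156; Spearman rho 0.886, exact p = 0.0333, adjusted 0.467), and r = 0.882 without the 2 arrays farthest from the DUSP6 median. ETV4 and ETV5 had r = 0.898 (exact permutation p = 0.0347, adjusted 0.243; rho 0.771, exact p = 0.103, adjusted 0.719), and 0.824 without the 2 farthest. DUSP4 and SPRY2 ran opposite, with r = -0.942 (exact permutation p = 0.00556, adjusted 0.156; rho -0.886, exact p = 0.0333, adjusted 0.467), and -0.876 without the 2 farthest. The fourth pair was SPRY4 with EGR1, whose lines do not overlap, so that no pooled value is given. With 3 arrays per line none of these could be tested within a line, and genes of 1 array share its labelling and normalization.

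**Figure D5:**
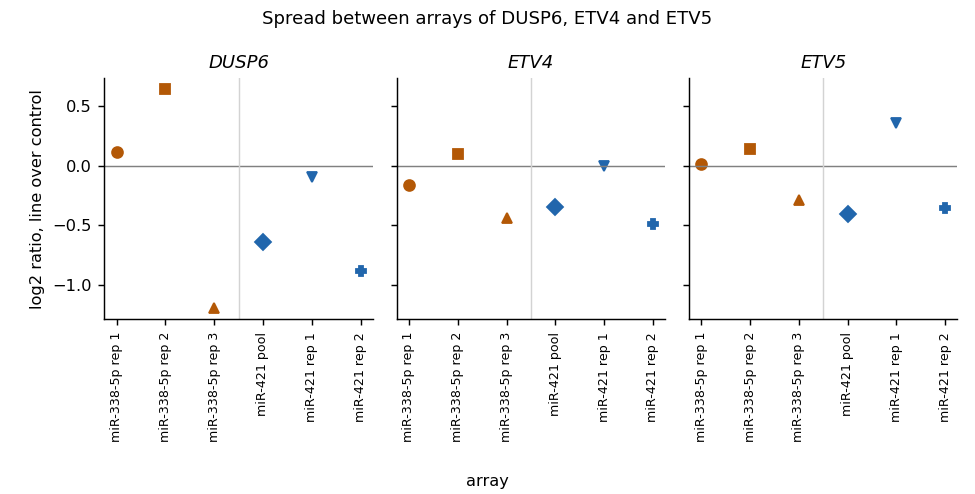
Log2 ratio (vertical axis) of DUSP6, ETV4 and ETV5 on each array, with miR-338-5p arrays in orange and miR-421 arrays in blue. In these 3 genes miR-338-5p replicate 2 lies above replicate 3, at 0.64 against -1.20 for DUSP6.

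The rest of the pathway was read from lists of genes with related roles. Among the 7 other dual-specificity MAPK phosphatases, 6 were tested. Under miR-421, 3 of these 6 rose, beside 22.7% of all genes called in either direction and 10.0% upward: DUSP1 by 1.56 ± 0.36, DUSP8 by 0.68 ± 0.47 and DUSP10 by 0.78 ± 0.17 (SD, n = 3 each; limma, adjusted p = 0.021, 0.0362 and 0.00561). DUSP1 and DUSP10 are phosphatases that act mainly on the stress kinases JNK and p38. Under miR-338-5p 2 of the 6 (33.3%) were called, beside 9.23% of all genes: DUSP10 rose by 0.48 ± 0.12 and DUSP9, which prefers ERK, had a lower level at -0.42 ± 0.21 (SD, n = 3 each; limma, adjusted p = 0.0276 and 0.0389). The DUSP10 probe was dim, and with plain background subtraction its means were 1.15 in the miR-338-5p line and 1.85 in the miR-421 line, and with the image software's ratio 1.17 and 2.01. The mean of the 3 DUSP8 probes was 0.34 under miR-421, and DUSP9 was at -0.69 with the image software's ratio without passing (limma, adjusted p = 0.0877). DUSP1 was 1.80, 0.38 and 1.82 on the miR-338-5p arrays, a mean of 1.33 ± 0.83 (SD, n = 3) that did not pass (limma, adjusted p = 0.05). The 6 genes had a median of 0.33 in the first line and 0.46 in the second, beside 0.00 and 0.01 for all genes.

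Of 4 other Sprouty and Spred genes, 3 were tested and 0 passed limma in either line. An unadjusted limma p under 0.05 was reached by 0 in the first line and 1 in the second. Over the 27497 probes tested it was reached by 7478 and 10310. Of 22 other ERK output genes, 16 were tested, and JUN, an AP-1 subunit, was the only 1 that passed in either line (6.25%, beside 9.23% and 22.7% of all genes). JUN rose by 1.37 ± 0.13 in the miR-338-5p line and by 0.89 ± 0.67 in the miR-421 line (SD, n = 3 each; limma, adjusted p = 0.0251 and 0.0431). Without miR-421 replicate 2 the miR-421 mean of JUN was 0.54 and did not pass (limma, adjusted p = 0.116). The medians of these 16 genes were 0.03 and 0.04, near those of all genes. FOS, EGR1's immediate-early companion, was not called, at -0.10 and 0.31 (limma, adjusted p = 0.729 and 0.196).

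Among 26 genes of the route from RAS to ERK, 24 were tested. Under miR-338-5p 3 of the 24 (12.5%) fell and 0 rose, beside 9.23% of all genes called in either direction and 5.25% downward. For miR-421, 2 fell and 2 rose, or 16.7% beside 22.7% of all genes. The medians of the 24 genes were -0.12 and -0.06, beside 0.00 and 0.01 for all genes, with 18 and 16 genes below 0. Whether the list stands apart from the rest of the array was not tested. MAP2K1, which encodes the kinase MEK1 that activates ERK, fell by 1.12 on the log2 scale under miR-338-5p and by 1.00 under miR-421, and was below 0 on all 6 arrays (limma, adjusted p = 0.00806 and 0.0058). It passed in 16 and 17 of 17 alternatives. RPS6KA3, an ERK-activated kinase, had means of -1.31 ± 0.52 and -1.56 ± 0.15 (SD, n = 3 each; limma, adjusted p = 0.0181 and 0.00686), but its second probe gave -0.06 and -0.16, and the mean of both probes was -0.68 and -0.86. RPS6KA1 of the same family was at -0.64 ± 0.04 (SD, n = 3) under miR-338-5p (limma, adjusted p = 0.00754), its second probe was at -0.14, and the mean of both was -0.39. Under miR-421 the RAS relative RRAS rose by 0.67 ± 0.26 and MAP2K2, which encodes MEK2, by 0.28 ± 0.13 (SD, n = 3 each; limma, adjusted p = 0.0224 and 0.049), the last passing in 3 of 17 alternatives. Of the 14 calls among these other pathway genes, 4 were kept with each array left out in turn: MAP2K1 in both lines, RPS6KA1 under miR-338-5p and DUSP10 under miR-421. Leaving out miR-421 replicate 2 ended 9 of the 14, and leaving out any other array ended 4 to 7. Over all probes, leaving out miR-421 replicate 2 took the calls from 2470 to 752 under miR-338-5p. Under miR-421 it took them from 5946 to 628.

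The array gives messenger RNA levels only, and the activity of ERK was not measured. Of the fibroblast markers LUM rose under miR-421 (2.14, limma, adjusted p = 0.0438), and its part in the member values was not tested. In bulk RNA, fewer cells of a type and less RNA per cell cannot be told apart.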

How the data were processed

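Agilent 2-colour arrays were read for 22RV1 cells. Per the file headers, the authors used Feature Extraction 11.5.1.1, which gave the deposited intensity columns, here mean spot brightness and median local background, not normalized. The deposited log10 ratio came, per the file headers, from the same software. The deposited series table held log2 ratios per gene name, whose normalization is not given in the sources used here; its columns' medians ran from -0.16 to 0.03, and over 32087 genes it correlated with the software's ratio at 0.989 or more. Both served as alternatives. Probe positions were on hg19. No exon or UTR annotation was used here.

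Background was corrected by normexp (offset 50), arrays were normalized by loess, outlier spots were left out and spots of a probe were averaged. Of 58201 gene probes, 27497 were tested, those well above background in Cy3 or Cy5 on 3 or more of 6 arrays. All arrays entered 1 limma fit (limma 3.58.1, R 4.3.3) with a mean per line, tested two-sided against 0 and against each other, with p adjusted over all probes (Benjamini-Hochberg, threshold 0.05). The test against 0 took its spread from the ratios, which hold the Cy3 signal of each array. Whether this covers spread between control cultures is not known, since 1 control culture may have served every array. Without dye swaps a dye bias enters the test. All arrays were on 1 slide, so slide could not be tested as a batch. Comparisons with control share the control design. The number of arrays limits precision. On simulated data (27380 probes), 200 probes per line were shifted by 1. The fit recovered 77.0% (miR-338-5p) and 76.5% (miR-421) of them, with 5 and 14 false calls. For the difference of the lines it recovered 63.5% of 400 shifted probes, with 19 false calls. Apart from EGR1 under miR-338-5p, the member estimates were smaller in size than this shift. These shares therefore do not describe recovery of changes of their size.

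Named were all member genes, other pathway genes past the threshold (at most 4 per list and comparison) and SPINK1; FOS and LUM were added after their values were seen. Some genes of the lists are not reported here. The members and lists were chosen with earlier results of these data known. Alternatives covered background, normalization, the authors' table, the software's ratio, filter, outliers, variance model, arrays in the fit, probes per gene, replicate block and each array left out. The CArG box was added after the other motifs.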

Additional observations from a re-analysis of the deposited data

How the results depend on the processing

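Over 17 alternatives, DUSP4 passed under miR-421 in 16, SPRY4 in 14 and SPRY1 in 10, and EGR1 passed under miR-338-5p in 9. The count of members past the threshold under miR-338-5p, 1 as reported, was 0 with the authors' table, the image software's ratio, no filter on dim probes, or the line's own 3 arrays, and 0 to 2 with 1 array left out. Under miR-421 the count of 3 was 2 with the software's ratio, the authors' table, no filter or the mean of a gene's probes, and 0 to 4 with 1 array left out (0 without miR-421 replicate 2, 1 without replicate 1). With the line's own 3 arrays it stayed at 3, with EGR1 called and SPRY1 not. For the difference the count was 0 in all 16 alternatives. Calls over all 27497 probes tested also changed between runs. Under miR-338-5p they were 2470 in the main run, 1094 with the software's ratio and 214 with the line's own 3 arrays. With 1 array left out they ran from 401 to 3648. Under miR-421 they were 5946 in the main run and 5331 with the software's ratio. With 1 array left out they ran from 628 (without miR-421 replicate 2) to 5504, and were 2973 without miR-421 replicate 1. The member median under miR-421 moved from -0.05 to -0.22 with plain background subtraction.

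Signs turned only for values that did not pass. SPRY1 under miR-338-5p was -0.10 with median centring and -0.11 in the authors' table, and SPRY2 under miR-421 was -0.07 with median centring. With 1 array left out, the values under miR-338-5p ran from -0.55 to 0.37 for DUSP6, -0.04 to 0.17 for SPRY1, 0.00 to 0.16 for SPRY4 and -0.14 to 0.08 for ETV5, and SPRY2 under miR-421 ran from -0.06 to 0.19. The difference of the lines ran from 0.00 to 0.92 for DUSP6, -0.02 to 0.26 for ETV4 and -0.05 to 0.34 for ETV5. DUSP6 and ETV5 under miR-338-5p turned positive without replicate 3. The cause was not tested. SPRY1 under miR-421 missed the threshold also with the software's ratio (0.66, limma, adjusted p = 0.058).

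Same-numbered arrays deviated with correlations of -0.140 and -0.211, beside -0.153 to 0.197 for the other pairs of arrays across the lines. So few pairs cannot show whether same-numbered replicates belong together, and the labels do not say. With the replicate block (correlation -0.297) the counts stayed at 1, 3 and 0, the medians were 0.02 and -0.02, and all probes called were 2664, 6011 and 0, beside 2470, 5946 and 13. The runs for SPINK1 and the other pathway genes were chosen after seeing the data. Probe brightness limits SPRY4, ETV4, ETV5 and, outside the members, DUSP10 most, since their ratios change size with the background treatment.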
